A study of Homo sapiens with 6 samples.

Results

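The genes described here are 36 genes of homologous recombination, the Fanconi anaemia pathway and the DNA damage checkpoint, out of the 60651 gene rows of the count tables. The list was chosen with earlier results of these data known. All 36 were measured in 6 RNA-seq libraries of MDA-MB-231, an established human triple-negative breast cancer line labelled as wild-type epithelial cells from the mammary gland. The treated cells received AF-EAE, the material that ethyl acetate draws out of the plant Antenoron filiforme, at a dose of 75 µg/ml or one of 150 µg/ml for 24 h. The control cells received DMSO, the vehicle. Each of the 3 groups had 2 libraries, labelled as biological replicates of this 1 line. The labels do not say whether they came from separate cultures, so p-values measure only the spread between these libraries. The series title places the extract in the setting of proliferation of triple-negative breast cancer cells.

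Homologous recombination repairs broken DNA by copying the sister chromatid, and it works mainly in S and G2 phase. Ends are resected, BRCA1 and PALB2 bring BRCA2 to the resected strand, and BRCA2 with other mediators prepares that strand to invade the intact copy. The Fanconi pathway handles crosslinked strands: a core complex with the ubiquitin-conjugating enzyme UBE2T modifies the FANCD2-FANCI pair. ATR with CHEK1 signals from stalled forks, and ATM with CHEK2 signals from breaks. Many of these genes are known to be transcribed together with the replication genes as cells enter S phase.

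Gene-assigned reads ran from 15621103 to 17113722 per library. Levels below are in CPM, the count relative to the library's TMM-scaled total, and fold changes are log2 values from a fit across all 15589 genes that passed a filter on low counts. A gene was called where the adjusted p was under 0.05 by the quasi-likelihood test of edgeR, adjusted by Benjamini-Hochberg over all genes tested. All 36 genes passed the filter, with between 69 and 4665 reads in any library. Of the epithelial markers, KRT8 (283 to 531 CPM) and KRT18 (95.8 to 187 CPM) were present, with all AF-EAE libraries below DMSO, KRT19 was at 31.5 to 36.2 CPM with AF-EAE, above the 29.5 and 29.9 CPM with DMSO, EPCAM was at 3.69 to 5.47 CPM, and CDH1, the defining E-cadherin, was at 0 to 0.121 CPM, under the floor of 3 reads (0.174 to 0.196 CPM). Of the mesenchymal markers VIM was at 550 to 854 CPM, with all AF-EAE libraries below DMSO, and ZEB1 was at 104 to 117 CPM. CDH2 was at 0 to 0.0611 CPM with AF-EAE, against 0.441 and 0.393 CPM with DMSO. FN1 was at 39.1 to 62.5 CPM with AF-EAE, against 129.7 and 132 CPM with DMSO. ESR1 was at 0.522 to 0.917 CPM with AF-EAE, against 0.126 and 0.131 CPM with DMSO, which are under that floor. PGR was at 0 to 0.05805 CPM, and ERBB2 was at 81.2 to 99.4 CPM. Of the leukocyte markers, PTPRC and CD3E were at 0 in all 6 libraries, LYZ was at 0 to 0.0655 CPM and CD14 at 0.131 to 0.428 CPM. Of the endothelial and fibroblast markers DCN was at 0 throughout, PECAM1, VWF and CDH5 were at or below 1.51 CPM, PDGFRB was at 1.89 to 4.59 CPM and COL1A1 at 6.62 to 10.8 CPM. The part of these marker levels in the results below was not tested.

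The list split in its direction with AF-EAE. At 75 µg/ml 5 of the 36 genes were higher than with DMSO, 16 were lower and 15 were not called. Over all genes tested, 19.2% were called higher and 19.4% lower in that comparison. At 150 µg/ml 6 were higher than with DMSO, 20 were lower and 10 were not called, beside 25.8% higher and 25.7% lower over all genes. The median log2 fold change of the 36 genes was -0.17 at 75 µg/ml and -0.29 at 150 µg/ml, against 0.01 and 0.03 over all genes. The share called lower stood above the background at both doses, and the share called higher stood below it. As the list was chosen with earlier results known, these shares are a description. Both comparisons share the DMSO libraries. The 16 lower calls at 75 µg/ml became 10 without DMSO replicate 2 and 10 without replicate 2 at 75 µg/ml, and DESeq2 called 3 genes higher at 150 µg/ml.

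The 5 genes called higher at both doses were BRCA1, FANCD2, FANCF, RAD50 and CHEK2, and BRCA2 was called higher at 150 µg/ml only. The 16 called lower at both doses were BARD1, BRIP1, RAD51AP1, RAD54L, FANCA, FANCC, FANCE, FANCI, FANCM, EXO1, BLM, RBBP8, NBN, ATR, CHEK1 and TOPBP1. FANCG, FANCL, UBE2T and MRE11 were called lower at 150 µg/ml only. The other 10, PALB2, RAD51B, RAD51C, RAD51D, XRCC2, XRCC3, RAD54B, RAD52, FANCB and ATM, were called at neither dose. In these bulk libraries fewer cells of a type and less RNA per cell cannot be told apart.

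Scaling moved the balance. TMM factors were lowest with DMSO (0.928 and 0.932) and highest at 150 µg/ml (1.06 in both libraries). With library totals alone, the median of all genes shifted to 0.14 at 75 µg/ml and 0.22 at 150 µg/ml, and 7 of the 36 genes were higher and 8 lower at 75 µg/ml, with 28.9% of all genes higher and 11.6% lower. At 150 µg/ml the split with library totals was 7 higher and 10 lower, with 38.7% of all genes higher and 16.3% lower. Library totals moved the values up, as for BRCA1 from 0.47 to 0.60 at 75 µg/ml, so only lower calls were at risk from this setting. Every gene called higher stayed so. BARD1, BRIP1, RAD54L, FANCA, FANCE, EXO1, ATR and TOPBP1 were called lower at both doses with either scaling, and RAD51AP1 and NBN at 150 µg/ml with either. BRCA1 and FANCD2, and the 8 genes just named as lower at both doses, kept their calls at both doses in all 15 alternatives run.

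**Figure D1:**
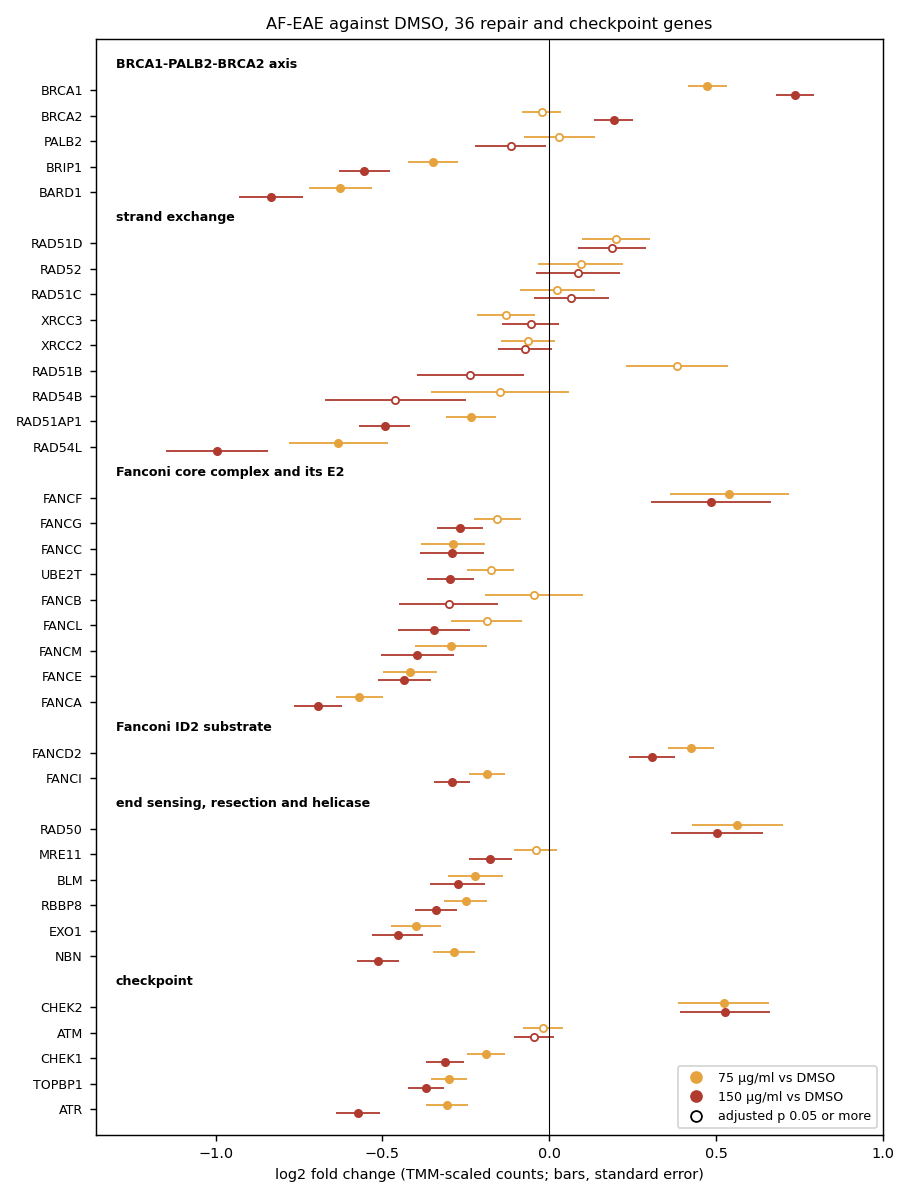
Log2 fold change of each of the 36 genes against DMSO at 75 and 150 µg/ml, grouped by role. Bars are standard errors derived from the F statistic of the edgeR test. BRCA1, FANCD2, FANCF, RAD50 and CHEK2 lie above 0 at both doses, and the lowest value is that of RAD54L at 150 µg/ml (-0.996).

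The start regions of 6 genes are shown, chosen with their changes known. They are BRCA1 and its partner BARD1, the effector kinases CHEK2 and CHEK1, and FANCD2 beside RAD54L, the gene with the lowest fold change. In each pair the first gene was called higher and the second lower at both doses. Each is a RefSeq window of 300 bases on GRCh38.p14, from 250 bases before the start to 50 after it, written 5′ to 3′ on the gene's strand: BRCA1 chr17:43125315-43125614 (minus), CHEK2 chr22:28741771-28742070 (minus), FANCD2 chr3:10026187-10026486 (plus), BARD1 chr2:214809634-214809933 (minus), RAD54L chr1:46247513-46247812 (plus) and CHEK1 chr11:125625974-125626273 (plus). Capitals mark matches, on either strand, to an E2F core (GCGGGAA or GCGCCAA), a CHR core (TTTGAA), an NF-Y box (CCAAT) and a CRE core (TGACG). The last letters of the second E2F core, CCAA, are also the first of the NF-Y box.
BRCA1: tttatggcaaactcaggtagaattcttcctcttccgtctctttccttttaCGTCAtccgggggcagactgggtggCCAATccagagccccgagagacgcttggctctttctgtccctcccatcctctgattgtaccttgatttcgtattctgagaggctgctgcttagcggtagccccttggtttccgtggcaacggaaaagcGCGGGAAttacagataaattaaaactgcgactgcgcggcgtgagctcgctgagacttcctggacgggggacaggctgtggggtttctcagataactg
CHEK2: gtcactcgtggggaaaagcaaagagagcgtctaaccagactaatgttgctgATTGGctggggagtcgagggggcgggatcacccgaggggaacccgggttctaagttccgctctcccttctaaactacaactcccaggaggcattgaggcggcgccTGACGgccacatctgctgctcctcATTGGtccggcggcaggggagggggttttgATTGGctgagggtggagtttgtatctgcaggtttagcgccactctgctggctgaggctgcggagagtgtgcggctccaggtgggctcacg
FANCD2: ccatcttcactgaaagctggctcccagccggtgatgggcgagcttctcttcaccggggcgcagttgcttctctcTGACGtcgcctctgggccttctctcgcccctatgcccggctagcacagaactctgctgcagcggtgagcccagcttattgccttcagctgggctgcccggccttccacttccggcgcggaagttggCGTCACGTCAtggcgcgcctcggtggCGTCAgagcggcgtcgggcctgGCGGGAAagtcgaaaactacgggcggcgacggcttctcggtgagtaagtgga
BARD1: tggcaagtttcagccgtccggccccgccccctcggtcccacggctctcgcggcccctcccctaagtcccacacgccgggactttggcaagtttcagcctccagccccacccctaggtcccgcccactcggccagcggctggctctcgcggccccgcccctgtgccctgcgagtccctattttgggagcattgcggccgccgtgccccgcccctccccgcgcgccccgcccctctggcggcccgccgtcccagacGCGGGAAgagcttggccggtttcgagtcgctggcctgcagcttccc
RAD54L: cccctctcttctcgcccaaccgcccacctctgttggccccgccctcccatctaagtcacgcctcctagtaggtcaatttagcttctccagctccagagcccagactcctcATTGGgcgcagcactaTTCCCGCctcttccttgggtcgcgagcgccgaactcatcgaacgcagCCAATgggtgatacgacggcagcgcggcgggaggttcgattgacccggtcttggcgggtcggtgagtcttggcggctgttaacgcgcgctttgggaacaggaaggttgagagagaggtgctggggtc
CHEK1: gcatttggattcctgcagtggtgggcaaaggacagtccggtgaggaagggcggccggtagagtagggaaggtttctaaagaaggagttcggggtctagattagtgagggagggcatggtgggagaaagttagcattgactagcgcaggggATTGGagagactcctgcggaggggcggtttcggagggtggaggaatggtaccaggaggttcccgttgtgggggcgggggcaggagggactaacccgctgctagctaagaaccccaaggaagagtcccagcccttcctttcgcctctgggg

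Windows were found for 33 of the 36 genes, the others being RAD54B, FANCI and NBN. The E2F core letters occurred in 17 of the 33 windows (51.5%), against 14.35% of 10961 windows of tested genes and 9.39% of all 27305 windows. Among genes lower at both doses 9 of 14 windows held them, among genes higher at both doses 2 of 5 did (BRCA1 and FANCD2), and in the DNA replication genes 28 of 45 did. The BARD1 and RAD54L windows held 1 match each, and the CHEK1 and CHEK2 windows held none. A CRE core occurred in 4 of the 5 windows of genes higher at both doses, in 6 of 14 windows of genes lower at both, and in 34.1% of windows of tested genes. It occurred in 16 of all 33 windows of the list (48.5%) and in 20 of 45 of the replication genes (44.4%). An NF-Y box was present in 3 of 5 windows of the higher and 7 of 14 of the lower genes, and in 36.2% of windows of tested genes. All 33 windows held it in 15 cases (45.5%), and those of the replication genes in 25 of 45 (55.6%). The CHR core was present in 0 of 5 windows of the higher and 2 of 14 of the lower genes, and in 9.38% of windows of tested genes. Its counts were 3 of all 33 windows and 2 of 45 of the replication genes. These are letter matches in a fixed window and not measured binding.

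BRCA1, the tumour suppressor that steers breaks towards recombination, had the lowest adjusted p among the 6 genes that were higher. It measured 72.5 and 74.6 CPM with DMSO, 102 and 102 CPM at 75 µg/ml and 121 and 124 CPM at 150 µg/ml. The groups did not overlap, and both libraries of each higher dose lay above all libraries of the dose below. The log2 fold change was 0.47 (SE 0.058, adjusted p = 5.14e-06) at 75 µg/ml and 0.74 (SE 0.0573, adjusted p = 8.84e-09) at 150 µg/ml. BRCA1 spans chr17:43044295-43170245 on the minus strand of hg38 in GENCODE release 29, which also holds the other gene positions given here.

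BARD1, the obligate partner with which BRCA1 forms its ubiquitin ligase, moved the other way. It measured 49.5 and 46.5 CPM with DMSO, 31.5 and 30.7 CPM at 75 µg/ml and 29.4 and 24.5 CPM at 150 µg/ml. Every AF-EAE library lay below both DMSO libraries, and the 2 doses did not overlap. In log2 terms it fell, at -0.63 (SE 0.0938, adjusted p = 4.56e-05) at 75 µg/ml and -0.83 (SE 0.095, adjusted p = 1.03e-06) at 150 µg/ml. BRIP1, the helicase that binds BRCA1, measured 77.3 and 82.3 CPM with DMSO, 57.9 and 67.4 CPM at 75 µg/ml and 55.2 and 53.5 CPM at 150 µg/ml. It was lower in all AF-EAE libraries, and changed by -0.35 (SE 0.0762, adjusted p = 0.00149) at 75 µg/ml and -0.55 (SE 0.077, adjusted p = 1.06e-05) at 150 µg/ml in log2 terms.

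BRCA2, a mediator that acts on the resected strand, measured 89.6 and 88.6 CPM with DMSO, 85.6 and 89.9 CPM at 75 µg/ml and 103 and 101 CPM at 150 µg/ml. Its 75 µg/ml libraries overlapped the DMSO libraries and its 150 µg/ml libraries lay above all others. In log2 terms the differences were -0.02 (SE 0.0593, adjusted p = 0.795) at 75 µg/ml and 0.19 (SE 0.0586, adjusted p = 0.0107) at 150 µg/ml. The call at 150 µg/ml was lost without replicate 1 at that dose, at 0.17 (adjusted p = 0.0742), and in DESeq2, at 0.17 (adjusted p = 0.0866). PALB2, which bridges BRCA1 and BRCA2, measured 23.5 and 22.5 CPM with DMSO, 23.5 and 23.6 CPM at 75 µg/ml and 19.6 and 22.8 CPM at 150 µg/ml, and its DMSO libraries overlapped both doses. Its log2 fold change was 0.03 (SE 0.107, adjusted p = 0.855) at 75 µg/ml and -0.12 (SE 0.107, adjusted p = 0.389) at 150 µg/ml. Of these 5 genes of the BRCA1-PALB2-BRCA2 axis, 1 was higher and 2 lower at 75 µg/ml, and 2 were higher and 2 lower at 150 µg/ml.

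**Figure D2:**
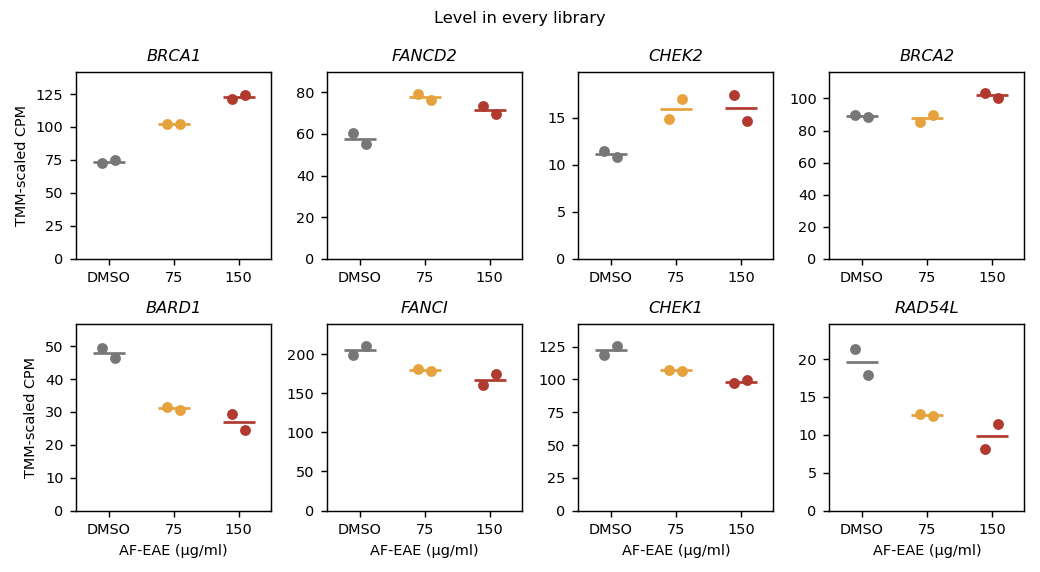
TMM-scaled CPM of 8 of the genes in each of the 6 libraries, with points for libraries and bars for group means, by AF-EAE dose. BRCA1 lies between 121 and 124 CPM at 150 µg/ml, against 72.5 to 74.6 CPM with DMSO, while BARD1 lies between 24.5 and 29.4 CPM at 150 µg/ml, against 46.5 to 49.5 CPM with DMSO.

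Among 9 genes of strand exchange, none was called higher at either dose against DMSO and 2 were called lower at each, a share of 22.2% beside 19.4% of all genes at 75 µg/ml and 25.7% at 150 µg/ml. With library totals 2 were higher and 1 lower at 75 µg/ml, and 1 was higher and 2 were lower at 150 µg/ml. RAD54L, a translocase that moves along duplex DNA during strand exchange, measured 21.4 and 17.9 CPM with DMSO, 12.8 and 12.6 CPM at 75 µg/ml and 8.16 and 11.5 CPM at 150 µg/ml. All AF-EAE libraries lay below both DMSO libraries. The log2 fold change of RAD54L was -0.63 (SE 0.149, adjusted p = 0.00266) at 75 µg/ml and -0.996 (SE 0.153, adjusted p = 3.17e-05) at 150 µg/ml. In RAD54L 25.1% of the exon length overlaps a gene on the opposite strand. RAD51AP1, which stimulates strand pairing, measured 61.3 and 69.2 CPM with DMSO, 56.4 and 54.5 CPM at 75 µg/ml and 47 and 45.7 CPM at 150 µg/ml. The groups followed the dose without overlap, and its log2 fold change was -0.24 (SE 0.0753, adjusted p = 0.0198) at 75 µg/ml and -0.49 (SE 0.0763, adjusted p = 3.5e-05) at 150 µg/ml. The call of RAD51AP1 at 75 µg/ml was lost without DMSO replicate 2, at -0.15 (adjusted p = 0.216), without replicate 2 at 75 µg/ml, at -0.21 (adjusted p = 0.118), and with library totals, at -0.11 (adjusted p = 0.275).

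The paralogues RAD51B, RAD51C, RAD51D, XRCC2 and XRCC3 were called at neither dose. RAD51B measured 8.01 and 8.97 CPM with DMSO, 11.6 and 10.6 CPM at 75 µg/ml and 7.68 and 6.73 CPM at 150 µg/ml, with its highest levels at 75 µg/ml. Its log2 fold change was 0.38 (SE 0.154, adjusted p = 0.0587) at 75 µg/ml and -0.24 (SE 0.16, adjusted p = 0.235) at 150 µg/ml. With library totals the RAD51B value at 75 µg/ml was 0.51 (adjusted p = 0.0136). RAD51D measured 22.3 and 23 CPM with DMSO, 24.4 and 27.7 CPM at 75 µg/ml and 25.6 and 26.1 CPM at 150 µg/ml, and its AF-EAE libraries all lay above the DMSO libraries without passing the threshold, at 0.20 (SE 0.102, adjusted p = 0.133) at 75 µg/ml and 0.19 (SE 0.102, adjusted p = 0.134) at 150 µg/ml. With library totals RAD51D was called higher at both doses, at 0.33 (adjusted p = 0.0162) and 0.38 (adjusted p = 0.00469). RAD51C, at 17.7 to 19.8 CPM over the 6 libraries, XRCC2, at 53.8 to 63.5 CPM, and XRCC3, at 35.0 to 41.8 CPM, had log2 fold changes between -0.13 and 0.07 at the 2 doses. RAD52, an annealing factor, was at 13.6 to 16.2 CPM, with 0.09 at both doses. RAD54B, a paralogue of RAD54L, was at 4.17 to 7.31 CPM, with -0.46 (SE 0.211, adjusted p = 0.0789) at 150 µg/ml. In XRCC3 76.7% of the exon length, and in RAD54B 59.1%, overlaps another gene, in XRCC3 on the opposite strand. With the strand setting not stated, reads in the shared stretches may not have been counted.

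Of the 9 genes of the Fanconi core complex and its E2 enzyme, 1 was higher and 4 were lower at 75 µg/ml, and 1 was higher and 7 were lower at 150 µg/ml. With library totals 2 were lower at each dose, FANCA and FANCE, and FANCC, FANCG, FANCL, FANCM and UBE2T were not called at either. FANCA, a core subunit often mutated in Fanconi anaemia, measured 146 and 147 CPM with DMSO, 89.6 and 108 CPM at 75 µg/ml and 88.2 and 92.8 CPM at 150 µg/ml. Its AF-EAE libraries all lay below the DMSO libraries, at -0.57 (SE 0.0707, adjusted p = 6.02e-06) at 75 µg/ml and -0.69 (SE 0.0711, adjusted p = 2.82e-07) at 150 µg/ml. FANCE, which contacts FANCD2, measured 59.2 and 53.9 CPM with DMSO, 43.1 and 41.6 CPM at 75 µg/ml and 43.6 and 40.1 CPM at 150 µg/ml. The 2 doses overlapped each other and lay below DMSO, at -0.42 (SE 0.0802, adjusted p = 0.000492) at 75 µg/ml and -0.43 (SE 0.0801, adjusted p = 0.000206) at 150 µg/ml.

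FANCC, which pairs with FANCE, measured 35.2 and 36.5 CPM with DMSO, 27.4 and 31.4 CPM at 75 µg/ml and 30.7 and 27.9 CPM at 150 µg/ml. All its AF-EAE libraries lay below DMSO, at -0.29 (SE 0.0959, adjusted p = 0.0249) at 75 µg/ml and -0.29 (SE 0.0957, adjusted p = 0.0166) at 150 µg/ml. FANCM, the translocase that anchors the core complex, measured 26.9 and 25.4 CPM with DMSO, 21.9 and 20.7 CPM at 75 µg/ml and 21.5 and 18.3 CPM at 150 µg/ml. It too was lower in every AF-EAE library, at -0.29 (SE 0.108, adjusted p = 0.04) at 75 µg/ml and -0.40 (SE 0.109, adjusted p = 0.00559) at 150 µg/ml. At 75 µg/ml FANCC lost its call without DMSO replicate 1, at -0.31 (adjusted p = 0.052), without DMSO replicate 2, at -0.27 (adjusted p = 0.0937), and without replicate 1 at 75 µg/ml, at -0.20 (adjusted p = 0.222). At 150 µg/ml FANCC lost it without DMSO replicate 2, at -0.27 (adjusted p = 0.0681), and without replicate 2 at that dose, at -0.23 (adjusted p = 0.127). FANCM at 75 µg/ml lost its call without any 1 of the 4 libraries compared, at values from -0.35 (adjusted p = 0.0695) to -0.25 (adjusted p = 0.175), and at 150 µg/ml without replicate 2 of that dose, at -0.29 (adjusted p = 0.0753). In DESeq2 both genes missed the threshold at 75 µg/ml, FANCC at -0.31 (adjusted p = 0.0694) and FANCM at -0.31 (adjusted p = 0.119).

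FANCG, a core scaffold, measured 79.2 and 77.3 CPM with DMSO, 67.6 and 73 CPM at 75 µg/ml and 62.2 and 67.7 CPM at 150 µg/ml. FANCL, the core's ubiquitin ligase, measured 25.9 and 25.2 CPM with DMSO, 20.6 and 24.3 CPM at 75 µg/ml and 19.9 and 20.3 CPM at 150 µg/ml. UBE2T, the E2 that works with FANCL, measured 58.7 and 61.2 CPM with DMSO, 53.9 and 52.3 CPM at 75 µg/ml and 49.6 and 48.1 CPM at 150 µg/ml. These 3 genes lay below DMSO in every AF-EAE library and passed the threshold only at 150 µg/ml. Their log2 fold changes there were -0.27 (SE 0.0693, adjusted p = 0.00359) for FANCG, -0.35 (SE 0.108, adjusted p = 0.0126) for FANCL and -0.30 (SE 0.0712, adjusted p = 0.00205) for UBE2T. FANCG lost its call without replicate 1 at 150 µg/ml, at -0.21 (adjusted p = 0.0536), and FANCL without DMSO replicate 1, at -0.33 (adjusted p = 0.0544), or replicate 1 at 150 µg/ml, at -0.34 (adjusted p = 0.0567). FANCB, which binds FANCL, was at 9.98 to 14.8 CPM over the 6 libraries and was called at neither dose, at -0.05 (SE 0.147, adjusted p = 0.834) at 75 µg/ml and -0.30 (SE 0.149, adjusted p = 0.103) at 150 µg/ml.

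FANCF, an adaptor of the core complex, was the exception among the core genes. It measured 5.17 and 6.68 CPM with DMSO, 8.98 and 8.23 CPM at 75 µg/ml and 7.74 and 8.82 CPM at 150 µg/ml, and every AF-EAE library lay above both DMSO libraries. Its log2 fold change was 0.54 (SE 0.179, adjusted p = 0.024) at 75 µg/ml and 0.49 (SE 0.179, adjusted p = 0.0314) at 150 µg/ml. These are low levels, and DESeq2 did not call FANCF at either dose, at 0.52 (adjusted p = 0.136) and 0.46 (adjusted p = 0.179). Without DMSO replicate 1 FANCF was at 0.36 (adjusted p = 0.213) at 75 µg/ml and 0.31 (adjusted p = 0.257) at 150 µg/ml. It also missed the threshold without replicate 1 at 75 µg/ml, at 0.47 (adjusted p = 0.127), and without replicate 2 at 150 µg/ml, at 0.38 (adjusted p = 0.184).

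FANCD2 and FANCI, the pair that the core complex ubiquitinates, went in opposite directions. FANCD2 measured 60.3 and 55.2 CPM with DMSO, 79 and 76.2 CPM at 75 µg/ml and 73.4 and 69.8 CPM at 150 µg/ml. FANCI measured 199 and 211 CPM with DMSO, 182 and 179 CPM at 75 µg/ml and 161 and 174 CPM at 150 µg/ml. All AF-EAE libraries lay above DMSO for FANCD2 and below DMSO for FANCI. The log2 fold change of FANCD2 was 0.43 (SE 0.0694, adjusted p = 0.000108) at 75 µg/ml and 0.31 (SE 0.0697, adjusted p = 0.00124) at 150 µg/ml, and that of FANCI was -0.19 (SE 0.054, adjusted p = 0.011) at 75 µg/ml and -0.29 (SE 0.0541, adjusted p = 0.000226) at 150 µg/ml. FANCI was not called with library totals, at -0.06 (adjusted p = 0.406) and -0.10 (adjusted p = 0.118), nor at 75 µg/ml without DMSO replicate 2, at -0.15 (adjusted p = 0.0819), or replicate 2 of that dose, at -0.18 (adjusted p = 0.0687).

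The 6 genes of end sensing, resection and unwinding did not share a direction. The only 1 called higher was RAD50, whose level is uncertain, as 79.7% of its exon length overlaps other genes. At 75 µg/ml 1 was higher and 4 were lower, and at 150 µg/ml 1 was higher and 5 were lower. With library totals 1 was higher and 1 lower at 75 µg/ml, and 1 was higher and 2 were lower at 150 µg/ml. EXO1, the exonuclease of long-range resection, measured 76.6 and 73 CPM with DMSO, 53.7 and 59.6 CPM at 75 µg/ml and 57.1 and 52.1 CPM at 150 µg/ml. It lay below DMSO in all AF-EAE libraries, at -0.40 (SE 0.0749, adjusted p = 0.000392) at 75 µg/ml and -0.45 (SE 0.075, adjusted p = 6.69e-05) at 150 µg/ml. RBBP8, which encodes CtIP, the cofactor that starts resection, measured 121 and 117 CPM with DMSO, 105 and 95.3 CPM at 75 µg/ml and 90.2 and 97.9 CPM at 150 µg/ml. It also lay below DMSO throughout, at -0.25 (SE 0.0638, adjusted p = 0.00475) at 75 µg/ml and -0.34 (SE 0.0639, adjusted p = 0.000252) at 150 µg/ml. BLM, the RecQ helicase, measured 58.2 and 58.5 CPM with DMSO, 52.4 and 47.7 CPM at 75 µg/ml and 44.6 and 51.8 CPM at 150 µg/ml. Its log2 fold change was -0.22 (SE 0.0827, adjusted p = 0.0425) at 75 µg/ml and -0.27 (SE 0.0828, adjusted p = 0.0103) at 150 µg/ml, with every AF-EAE library below DMSO.

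RBBP8 at 75 µg/ml lost its call without replicate 2 of that dose, at -0.18 (adjusted p = 0.088), and with library totals it was at -0.12 (adjusted p = 0.132) and, at 150 µg/ml, -0.15 (adjusted p = 0.0519). BLM at 75 µg/ml missed the threshold without DMSO replicate 1, at -0.23 (adjusted p = 0.0968), without DMSO replicate 2, at -0.22 (adjusted p = 0.101), and without replicate 2 of that dose, at -0.16 (adjusted p = 0.285). At 150 µg/ml BLM missed it without replicate 1 of that dose, at -0.17 (adjusted p = 0.15).

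The MRE11-RAD50-NBN complex, which senses and trims broken ends, also did not move as a unit. NBN, its signalling subunit, measured 119.6 and 128 CPM with DMSO, 100.4 and 103 CPM at 75 µg/ml and 82.2 and 91.1 CPM at 150 µg/ml. Its levels followed the dose without overlap, at -0.29 (SE 0.0626, adjusted p = 0.00151) at 75 µg/ml and -0.51 (SE 0.0632, adjusted p = 2.58e-06) at 150 µg/ml. MRE11, the nuclease, measured 90.8 and 96.2 CPM with DMSO, 92.5 and 89.1 CPM at 75 µg/ml and 79.1 and 86.3 CPM at 150 µg/ml. The 75 µg/ml libraries of MRE11 overlapped DMSO and the 150 µg/ml libraries lay below. Its log2 fold change was -0.04 (SE 0.0639, adjusted p = 0.652) at 75 µg/ml and -0.18 (SE 0.0643, adjusted p = 0.0293) at 150 µg/ml. With library totals the 150 µg/ml value turned to 0.01 (adjusted p = 0.896). It also lost the threshold without DMSO replicate 2, at -0.14 (adjusted p = 0.158), and without replicate 1 at 150 µg/ml, at -0.12 (adjusted p = 0.237).

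RAD50, the ATPase that tethers the ends, measured 8.89 and 8.31 CPM with DMSO, 13 and 12.5 CPM at 75 µg/ml and 12 and 12.4 CPM at 150 µg/ml. Every AF-EAE library lay above both DMSO libraries, at 0.56 (SE 0.138, adjusted p = 0.00345) at 75 µg/ml and 0.50 (SE 0.138, adjusted p = 0.00543) at 150 µg/ml. In DESeq2 the 150 µg/ml value was 0.48 (adjusted p = 0.0653). Of the RAD50 exon length 79.7% overlaps other annotated genes, one of them on the same strand, so reads there may not have been counted and its level is uncertain.

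In the checkpoint group 1 of 5 genes was higher and 3 were lower at each dose, and with library totals 1 was higher and 2 were lower at each. ATR, the kinase of stalled forks, measured 81.2 and 81.6 CPM with DMSO, 64.7 and 66.9 CPM at 75 µg/ml and 54.6 and 54.7 CPM at 150 µg/ml. Its groups followed the dose without overlap, at -0.31 (SE 0.0641, adjusted p = 0.00103) at 75 µg/ml and -0.57 (SE 0.065, adjusted p = 9.75e-07) at 150 µg/ml. TOPBP1, which activates ATR, measured 153 and 156 CPM with DMSO, 125 and 126 CPM at 75 µg/ml and 115 and 124 CPM at 150 µg/ml. It lay below DMSO in all AF-EAE libraries, at -0.30 (SE 0.0545, adjusted p = 0.000287) at 75 µg/ml and -0.37 (SE 0.0546, adjusted p = 2.03e-05) at 150 µg/ml. ATM, the kinase of double-strand breaks, measured 259 and 270.2 CPM with DMSO, 243 and 280.2 CPM at 75 µg/ml and 251 and 262 CPM at 150 µg/ml. Its groups overlapped, and it was called at neither dose, at -0.02 (SE 0.0599, adjusted p = 0.846) at 75 µg/ml and -0.04 (SE 0.0598, adjusted p = 0.561) at 150 µg/ml.

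CHEK1, the effector kinase under ATR, measured 119 and 126 CPM with DMSO, 108 and 107 CPM at 75 µg/ml and 97.1 and 99.5 CPM at 150 µg/ml. CHEK2, the effector kinase under ATM, measured 11.4 and 10.8 CPM with DMSO, 14.9 and 17 CPM at 75 µg/ml and 17.4 and 14.6 CPM at 150 µg/ml. AF-EAE libraries lay below DMSO for CHEK1 and above DMSO for CHEK2. The log2 fold change of CHEK1 was -0.19 (SE 0.0563, adjusted p = 0.0128) at 75 µg/ml and -0.31 (SE 0.0566, adjusted p = 0.000169) at 150 µg/ml, and that of CHEK2 was 0.52 (SE 0.135, adjusted p = 0.00529) at 75 µg/ml and 0.53 (SE 0.135, adjusted p = 0.00333) at 150 µg/ml. CHEK1 was not called with library totals, at -0.06 (adjusted p = 0.403) and -0.13 (adjusted p = 0.0719), nor at 75 µg/ml without DMSO replicate 2, at -0.15 (adjusted p = 0.0975), or replicate 2 of that dose, at -0.19 (adjusted p = 0.0749). CHEK2 lost its call at 75 µg/ml without replicate 2 of that dose, at 0.42 (adjusted p = 0.0611), and at 150 µg/ml without replicate 1, at 0.39 (adjusted p = 0.0578). CHEK2 has near-identical pseudogene copies, so its counts are uncertain.

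Ratios of raw read counts within a library need no scaling between libraries. These pairs were chosen with the changes known, and their ratios are a description. BRCA1 reads per BARD1 read were 1.47 and 1.6 in the DMSO libraries, 3.24 and 3.33 in those at 75 µg/ml and 4.11 and 5.06 in those at 150 µg/ml. FANCD2 reads per FANCI read were 0.303 and 0.262 in the DMSO libraries, 0.435 and 0.427 in those at 75 µg/ml and 0.456 and 0.401 in those at 150 µg/ml. Both ratios were above DMSO in every AF-EAE library. The ratio of CHEK2 to CHEK1 reads was 0.0962 and 0.0859 in the DMSO libraries, 0.139 and 0.159 in those at 75 µg/ml and 0.179 and 0.147 in those at 150 µg/ml. The ratio of ATR to ATM reads was 0.313 and 0.302 in the DMSO libraries, 0.267 and 0.239 in those at 75 µg/ml and 0.218 and 0.209 in those at 150 µg/ml, and that of NBN to MRE11 reads was 1.32 and 1.33 in the DMSO libraries, 1.08 and 1.15 in those at 75 µg/ml and 1.04 and 1.06 in those at 150 µg/ml. The first of these was above DMSO and the other 2 were below DMSO in every AF-EAE library.

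**Figure D3:**
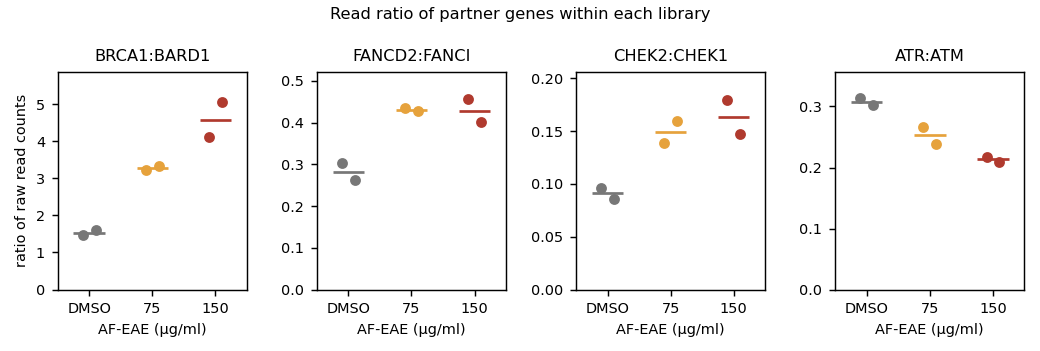
Ratio of raw read counts of 4 gene pairs within each library, by AF-EAE dose, with points for libraries and bars for group means. BRCA1:BARD1 lies between 4.11 and 5.06 at 150 µg/ml, against 1.47 to 1.60 with DMSO.

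Between the doses, 2 of the 36 genes were higher at 150 than at 75 µg/ml and 4 were lower, with 30 not called. Over all genes, 9.51% were called higher and 12.5% lower. BRCA1 was higher, at 0.26 (SE 0.0555, adjusted p = 0.00255), and so was BRCA2, at 0.22 (SE 0.0585, adjusted p = 0.0134). ATR, NBN, RAD51AP1 and RAD51B were lower, at -0.27 (SE 0.0658, adjusted p = 0.00764), -0.23 (SE 0.0638, adjusted p = 0.016), -0.26 (SE 0.0769, adjusted p = 0.0236) and -0.62 (SE 0.155, adjusted p = 0.00857). BRCA1 alone kept this call in all 15 alternatives. With library totals 2 genes were higher (BRCA1 and BRCA2) and 2 lower (ATR and RAD51B), beside 14.2% higher and 8.63% lower over all genes.

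Leaving out a single library ended the other 5 calls between the doses, and only 1 lower call was left without replicate 2 at 75 µg/ml or without replicate 1 at 150 µg/ml. BRCA2 was at 0.19 (adjusted p = 0.136) without replicate 1 at 75 µg/ml and 0.20 (adjusted p = 0.0994) without replicate 1 at 150 µg/ml. ATR was at -0.24 (adjusted p = 0.0718) without replicate 2 at 75 µg/ml and -0.26 (adjusted p = 0.0638) without replicate 1 at 150 µg/ml. RAD51B was at -0.55 (adjusted p = 0.0752) without replicate 1 at 75 µg/ml and -0.52 (adjusted p = 0.0765) without replicate 2 at 150 µg/ml. NBN was at -0.24 (adjusted p = 0.0602) without replicate 1 and -0.21 (adjusted p = 0.0887) without replicate 2 at 75 µg/ml, and -0.15 (adjusted p = 0.237) without replicate 1 at 150 µg/ml. RAD51AP1 missed the threshold without any 1 of these 4 libraries, from -0.28 (adjusted p = 0.0611) to -0.23 (adjusted p = 0.158).

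NBR2, a long non-coding RNA gene, lies on the plus strand at chr17:43125610-43153671, head to head with the BRCA1 start used for the RefSeq window shown above. The NBR2 start is 246 bases upstream of that BRCA1 start and falls inside the window. The GENCODE span of BRCA1 reaches further upstream and covers NBR2. In that annotation no exon of BRCA1 overlaps an exon of NBR2, but with no stated strand setting, reads of one gene over exons of the other could not be told apart. NBR2 measured 5.11 and 4.78 CPM with DMSO, 9.72 and 11.5 CPM at 75 µg/ml and 16.1 and 17.2 CPM at 150 µg/ml. The 3 groups did not overlap and followed the dose, as for BRCA1. The log2 fold change of NBR2 was 1.10 (SE 0.16, adjusted p = 3.3e-05) at 75 µg/ml and 1.75 (SE 0.153, adjusted p = 3.88e-08) at 150 µg/ml, and 0.65 (SE 0.137, adjusted p = 0.00249) between the doses. BRCA1 reads per NBR2 read were 14.2 and 15.6 in the DMSO libraries, 10.5 and 8.9 in those at 75 µg/ml and 7.53 and 7.19 in those at 150 µg/ml, lower in every AF-EAE library.

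**Figure D4:**
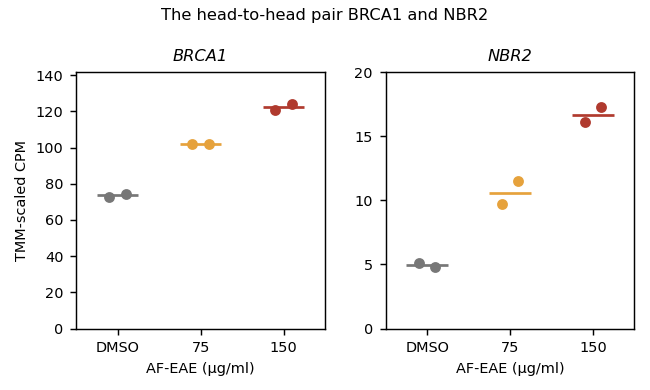
TMM-scaled CPM of BRCA1 (left) and its head-to-head neighbour NBR2 (right) in each library by AF-EAE dose, with points for libraries and bars for group means. BRCA1 averages 122 CPM and NBR2 16.7 CPM at 150 µg/ml, against 73.5 and 4.94 CPM with DMSO.

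Levels per exon length, in RPKM (CPM per kilobase of exon), allow only a rough comparison between genes. The length merges all annotated exons of a gene, whether or not they are used in these cells. Genes with over 50% of their exon length shared with other genes (RAD50, XRCC3 and RAD54B) are left out of this comparison. With DMSO the other 4 genes that were higher at both doses stood at 2.01 to 8.003 RPKM, with a median of 4.68. The 16 genes lower at both doses stood at 2.80 to 26.4 RPKM with DMSO, with a median of 16.55. The other 8 genes called at neither dose had a median of 3.51 RPKM. The levels of the first and second set overlapped, and the difference was not tested. The first set includes CHEK2, whose counts are uncertain.

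The DNA replication genes were set beside the 36 for comparison. Of 52 replication genes 2 were higher and 43 lower at 75 µg/ml, with a median log2 fold change of -0.37, and 1 was higher and 42 lower at 150 µg/ml, with a median of -0.52. The shares called lower were 82.7% at 75 µg/ml and 80.8% at 150 µg/ml, beside 19.4% and 25.7% of all genes. The shares called higher were 3.85% and 1.92%, beside 19.2% and 25.8%. With library totals the shares lower were 61.5% and 63.5% at the 2 doses, against a background of 11.6% and 16.3%. The shares higher were then 5.77% and 7.69%, against 28.9% and 38.7%. The counts with library totals were 3 higher and 32 lower at 75 µg/ml and 4 higher and 33 lower at 150 µg/ml. MCM6, a subunit of the replicative helicase, measured 187 and 192 CPM with DMSO, 79.1 and 77 CPM at 75 µg/ml and 72.9 and 78.3 CPM at 150 µg/ml. PCNA, the polymerase clamp, measured 287 and 287 CPM with DMSO, 148 and 146 CPM at 75 µg/ml and 127 and 124 CPM at 150 µg/ml. Both lay below DMSO in every AF-EAE library, at -1.28 (SE 0.0575, adjusted p = 3.32e-11) for MCM6 and -0.96 (SE 0.0485, adjusted p = 1.25e-10) for PCNA at 75 µg/ml. The values at 150 µg/ml were -1.33 (SE 0.0576, adjusted p = 4.97e-12) and -1.19 (SE 0.049, adjusted p = 2.42e-12). Of the 36 genes the lowest log2 fold change was that of RAD54L, -0.996 at 150 µg/ml.

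Of 58 other repair and checkpoint genes, 57 were tested. At 75 µg/ml 12 were higher and 15 lower (median -0.06), shares of 21.1% and 26.3% beside 19.2% and 19.4% of all genes. At 150 µg/ml 15 were higher and 20 lower (median -0.06), shares of 26.3% and 35.1% beside 25.8% and 25.7% of all genes. The shares called higher were near the background. With library totals 18 (31.6%) were higher and 14 (24.6%) lower at 75 µg/ml, against a background of 28.9% and 11.6%. The 150 µg/ml split was then 17 higher (29.8%) and 12 lower (21.1%), against 38.7% and 16.3%. The genes named from this list were chosen after their values were seen. TP53BP1, which opposes resection, measured 60.8 and 66 CPM with DMSO, 103 and 106 CPM at 75 µg/ml and 111 and 108 CPM at 150 µg/ml. H2AX, the histone phosphorylated at breaks, measured 382 and 332 CPM with DMSO, 245 and 237 CPM at 75 µg/ml and 154 and 151 CPM at 150 µg/ml. The first was above and the second below DMSO in every AF-EAE library, at 0.79 (SE 0.0623, adjusted p = 9.76e-09) for TP53BP1 and -1.22 (SE 0.0598, adjusted p = 2.26e-11) for H2AX at 150 µg/ml. In TP53BP1 28.7% of the exon length overlaps another gene. Without DMSO replicate 1, or without replicate 2 at 75 µg/ml, 7 genes of the list were called higher at 75 µg/ml.

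In the same list the fork-protection genes CLSPN, TIPIN and TIMELESS did not share a direction. CLSPN, the CHEK1 adaptor, was lower in log2 terms, at -0.43 (SE 0.0672, adjusted p = 7.39e-05) at 75 µg/ml and -0.48 (SE 0.0673, adjusted p = 1.06e-05) at 150 µg/ml. TIPIN was at -0.55 (SE 0.0834, adjusted p = 5.14e-05) at 75 µg/ml and -0.64 (SE 0.0837, adjusted p = 5.8e-06) at 150 µg/ml. Its partner TIMELESS was higher, at 0.31 (SE 0.0542, adjusted p = 0.000239) at 75 µg/ml and 0.20 (SE 0.0543, adjusted p = 0.0053) at 150 µg/ml. Of other genes of the list, WEE1, the kinase that holds CDK1 inactive, was at -0.54 (SE 0.0741, adjusted p = 1.95e-05) at 75 µg/ml and -1.14 (SE 0.0771, adjusted p = 1.36e-09) at 150 µg/ml. The opposing phosphatase gene CDC25A was at -0.68 (SE 0.0726, adjusted p = 1.16e-06) at 75 µg/ml and -0.76 (SE 0.0728, adjusted p = 1.23e-07) at 150 µg/ml. CDC25B and CDC25C were not called at 75 µg/ml, at 0.06 (adjusted p = 0.425) and 0.22 (adjusted p = 0.0733). They were lower at 150 µg/ml, at -0.28 (adjusted p = 0.000516) and -0.38 (adjusted p = 0.00248). SWI5, which supports strand exchange, was higher, at 0.69 (SE 0.126, adjusted p = 0.000298) at 75 µg/ml and 1.08 (SE 0.123, adjusted p = 9.62e-07) at 150 µg/ml.

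Of 11 genes of non-homologous end joining, the competing pathway, 3 were higher and 3 lower at 75 µg/ml (median -0.09), and 3 were higher and 5 lower at 150 µg/ml (median -0.05). The shares were 27.3% and 27.3% at 75 µg/ml, beside 19.2% and 19.4% of all genes, and 27.3% and 45.5% at 150 µg/ml, beside 25.8% and 25.7%, in a list of few genes. With library totals 4 (36.4%) were higher and 3 (27.3%) lower at 75 µg/ml, against a background of 28.9% and 11.6%. The 150 µg/ml split was then 5 higher (45.5%) and 3 lower (27.3%), against 38.7% and 16.3%. Without DMSO replicate 1 the 5 lower calls at 150 µg/ml became 3. PRKDC, the catalytic subunit of DNA-PK, was at -0.48 (SE 0.052, adjusted p = 1.34e-06) at 75 µg/ml and -0.68 (SE 0.0523, adjusted p = 7.08e-09) at 150 µg/ml. POLL, a gap-filling polymerase, was higher, at 0.72 (SE 0.0995, adjusted p = 1.84e-05) at 75 µg/ml and 0.87 (SE 0.0986, adjusted p = 1.03e-06) at 150 µg/ml.

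**Figure D5:**
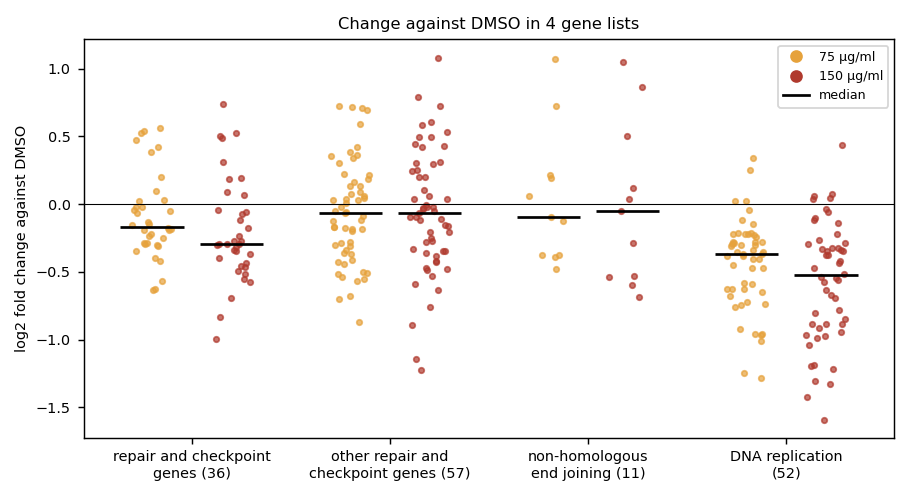
Log2 fold change against DMSO at 75 and 150 µg/ml of each tested gene in the 36 genes, the DNA replication genes, the other repair and checkpoint genes and the genes of non-homologous end joining, with the median of each list marked. At 150 µg/ml the medians are -0.29 for the 36 genes and -0.52 for the replication genes.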

How the data were processed

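RNA-seq libraries of MDA-MB-231 cells were aligned with HISAT2 2.2.1 to hg38 and counted with HTSeq 2.0.2, per the submitters' processing notes. The authors deposited raw read counts per gene, 60651 gene rows and 5 summary rows per library. The annotation release and strand setting were not stated in the sources used here. Reads without a feature were 6.32% to 7.98%, and ambiguous reads 10.9% to 11.5%, of counted reads; both were left out. Reads that fall on overlapping genes are among the ambiguous ones, so genes such as RAD50 may be counted over part of their length. Among genes called lower, the overlapped exon share was 25.1% in RAD54L, 23.6% in FANCA, 19.7% in FANCL and 16.4% in ATR.

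From these counts, filterByExpr by group kept 15589 genes and left out 45062. Tests used edgeR 4.0.16 (R 4.3.3): TMM scaling, a quasi-likelihood fit of 3 group means over all 6 libraries with no replicate block, and Benjamini-Hochberg adjustment over all genes, with a threshold of 0.05. Each SE given is derived: the absolute log2 fold change divided by the square root of the F statistic of the edgeR test. The biological coefficient of variation was 5.08%, on 3 residual degrees of freedom. Replicate libraries differed by more than sampling noise (chi-square per degree of freedom 2.83 to 3.65). The 36 genes and the other lists were chosen with earlier results of these data known. Genes on the list were named by role, with values in every library for each that passed the threshold at either dose. Alternatives were DESeq2 1.42.0 with its size factors, limma 3.58.1 (voom), library totals, other filters, 2 groups only, a replicate block, a threshold of 0.01 and leaving out each library. Exon lengths and overlaps came from GENCODE release 29 gene models.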

Additional observations from a re-analysis of the deposited data

How the results depend on the processing

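Of 15 alternatives, library totals, DESeq2, the stricter threshold and leaving out a library each moved some count by over 1.5 times, and the others moved none so far. With library totals, genes of the list called lower were 8 at 75 µg/ml, 10 at 150 µg/ml and 2 between the doses, and MRE11 at 150 µg/ml turned to 0.0114 in log2 terms. All genes called were then 4501 higher and 1816 lower at 75 µg/ml and 2542 lower at 150 µg/ml, replication genes 4 higher at 150 µg/ml, end-joining genes 5 higher and 3 lower at 150 µg/ml and 1 lower between the doses, and other repair genes 18 higher at 75 µg/ml, 12 lower at 150 µg/ml and 10 higher between the doses. DESeq2 called 3 of the 36 genes higher at 150 µg/ml, 1931 of all genes higher at 75 µg/ml and 850 between the doses, 1 replication gene higher at 75 µg/ml and 1 between the doses, and 6 and 3 other repair genes higher. At a threshold of 0.01, the 36 genes gave 10 lower at 75 µg/ml and 1 higher and 2 lower between the doses; all genes 722 higher and 1161 lower between the doses; replication genes 1 higher at 75 µg/ml and 1 between the doses; end-joining genes 3 lower at 150 µg/ml and 0 higher between the doses; and other repair genes 7 higher at 75 µg/ml and 2 between the doses. Leaving out single libraries gave, for the 36 genes, 4 to 5 higher and 10 to 16 lower at 75 µg/ml, 4 to 6 higher and 16 to 20 lower at 150 µg/ml, and 1 to 2 higher and 1 to 4 lower between the doses. It gave 2262 to 2794 of all genes higher at 75 µg/ml, 592 to 1612 higher and 915 to 2105 lower between the doses, 0 to 2 replication genes higher at 75 µg/ml, and 0 to 3 higher and 9 to 17 lower between the doses. End-joining genes were 2 to 3 higher at 75 µg/ml, 3 to 5 lower at 150 µg/ml, and 0 to 1 higher and 1 to 3 lower between the doses. Other repair genes were 7 to 11 higher at 75 µg/ml, and 1 to 5 higher and 4 to 6 lower between the doses. The cause of these shifts was not tested. Of 1620 values of single genes of the list, 65 changed sign without being called in either setting, 18 of them with library totals. Replicate numbers did not pair the libraries (correlations of deviations 0.059, 0.041 and 0.0037). With a replicate block, 5 genes were higher and 16 lower at 75 µg/ml, 6 and 20 at 150 µg/ml, and 2 and 5 between the doses. Genes with few reads, such as RAD54B and FANCF, were measured with the least precision.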

Other observations

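Set against PCNA or MCM6 within each library, 2 of the genes called lower had higher read ratios with AF-EAE. At 75 µg/ml MCM6 had the lowest log2 fold change of the 52 replication genes (-1.28). PCNA was at -0.96 and -1.19 at the 2 doses, against list medians of -0.37 and -0.52. A gene that fell less than these 2 has a higher ratio, so the ratios do not stand for the replication list. CHEK1 reads per PCNA read were 0.414 and 0.439 in the DMSO libraries, 0.724 and 0.729 in those at 75 µg/ml and 0.766 and 0.802 in those at 150 µg/ml. RAD51AP1 reads per MCM6 read were 0.329 and 0.359 in the DMSO libraries, 0.713 and 0.708 in those at 75 µg/ml and 0.645 and 0.584 in those at 150 µg/ml. Both ratios were above DMSO in every AF-EAE library, and for RAD51AP1 the ratio was lower at 150 than at 75 µg/ml. The pairs were chosen with these values known.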
